A study of Drosophila melanogaster with 24 samples.

Results

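The long noncoding RNAs described here are 228 genes of *Drosophila melanogaster*, chosen by their mean level in whole adult males across wild-type flies and 2 Rel genotypes, with and without traumatic brain injury. They are the rows of the deposited gene table whose symbol carries the lncRNA prefix and whose mean over all 24 libraries was at least 5 CPM (the usual counts-per-million scale, here of the library total), leaving out lncRNA:IBIN and lncRNA:CR44333 by name. The prefix is dropped from the names below. Of 17768 gene rows, 1915 were lncRNA rows, 1831 of these had a count in some library, and 228 were kept. The exclusion by name removed no row, because IBIN averaged 2.30 CPM and CR44333 1.21 CPM. The members just inside the threshold were CR44955 (5.15 CPM), CR44950 (5.15 CPM) and CR44558 (5.05 CPM), and the rows just outside were CR45429 (just under 5 CPM), CR31526 (4.99 CPM) and CR43356 (4.99 CPM). The mean level is the only value that the rule uses, so levels are given as a description. The rule was set with earlier results of these data known. All 228 had enough counts to be tested, and all 228 are annotated as noncoding RNA genes in Ensembl release 115, whose dm6 coordinates are used.

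Long noncoding RNAs are transcripts of messenger RNA length without a long protein-coding reading frame. Some act as RNA scaffolds in the nucleus, some are carriers of small RNAs that are cut from their exons or introns, and for most fly lncRNA genes no function is known. In male flies the best studied are roX1 and roX2, which with the MSL proteins coat the single X chromosome and raise its transcription, a process called dosage compensation. Another is the heat shock RNA Hsromega, which organises nuclear omega speckles that hold RNA-binding proteins.

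The study has 6 groups of 4 libraries: Reldel/Reldel, +/Reldel and wild-type males, each injured or uninjured, all 1 to 7 days old and all described as yw. Rel encodes Relish, the NF-kappaB factor of the Imd immune pathway. Injured flies were frozen 4 h after the injury, uninjured flies without it, and all were kept at 25 °C. Below, Reldel/Reldel flies are called homozygotes and +/Reldel flies heterozygotes. Each library is RNA of whole flies, so in these bulk samples fewer cells of a type and less RNA per cell cannot be told apart. The labels name neither a sham-handled group nor separate cultures for the 4 libraries of a group, so the p-values measure the spread between libraries, which may be technical.

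Totals ranged over 6543632 to 14660491 counts, and a count of 3 was worth 0.205 to 0.458 CPM, a limit that covers counting error only. Rel, read as the check of the genotype labels, was at 0 counts in 7 of the 8 homozygous libraries and at 1 in the other. Heterozygous libraries had 376 to 906 Rel counts after injury and 273 to 694 without it, and wild-type libraries 783 to 1989 after injury and 456 to 1016 without it. Male markers were abundant in every library: 20 testis markers summed to 6200 to 10300 CPM and 12 accessory gland markers to 5230 to 12400 CPM. The 10 ovary markers summed to 248 CPM in injured wild-type library 4 and to no more than 9.32 CPM in any other library, and 5 of the 10 averaged under 1 CPM. Injured homozygous library 1 also stood apart: it held the highest of the 24 values for 58 of the 228 lncRNAs, and its 13 neuron markers summed to 3426 CPM, against at most 2410 CPM elsewhere. The parts of these libraries and tissues in the lncRNA results were not tested. Values with and without the libraries follow where a call rests on them.

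The lncRNAs together took 1.15% to 1.61% of the counts of a library. A single gene, CR42862, held 34.6% of the counts of all members, and the 6 most abundant members held 60.8%. By contrast, 117 members averaged under 10 CPM, 16 averaged at least 100 CPM, and the median was 9.48 CPM. Members were mostly short and simple: the median exonic length was 831.5 bases (212 to 21710), and 138 had a single exon block. They lay on 2L (56), 2R (34), 3L (44), 3R (56), 4 (2) and X (36). For 121 members no other annotated gene overlapped on either strand, whereas 59 overlapped a gene on the same strand and 54 one on the opposite strand. The strand handling of the counts is not stated in the labels, so reads of overlapping genes cannot be told apart.

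**Figure D1:**
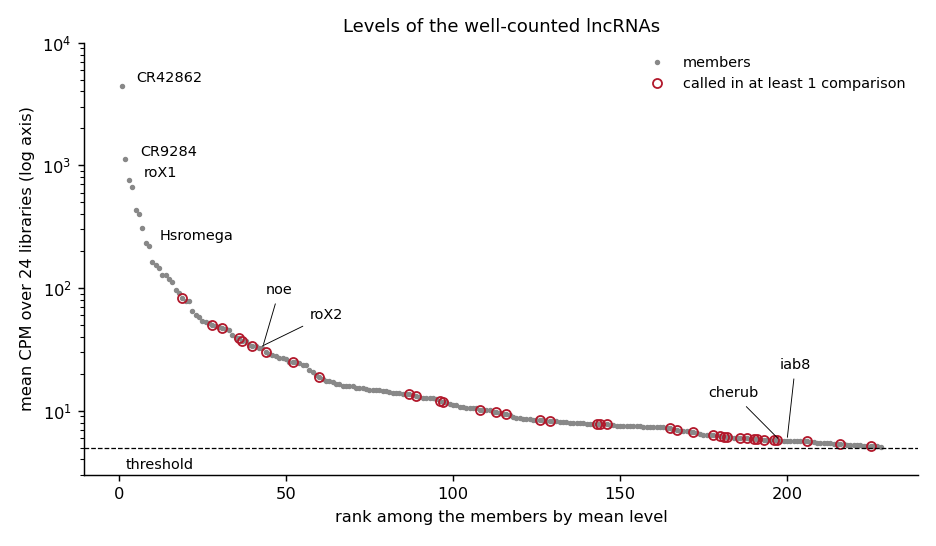
Mean CPM of the library total over 24 libraries (log axis) against rank for the 228 lncRNAs, with the 38 that were called in at least 1 comparison circled and the threshold of 5 CPM dashed. CR42862 lies at 4446 CPM, roX1 at 753 CPM and Hsromega at 232 CPM, and the circled genes all lie below 100 CPM.

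The 6 most abundant lncRNAs were CR42862 (4446 CPM, 3L:224106-230964, plus strand), CR9284 (1124 CPM, 2R:21803402-21804338, plus strand), roX1 (753 CPM, X:3857230-3862697, minus strand), CR32658 (660 CPM, X:12091264-12092272, plus strand), CR32652 (429.8 CPM, X:12411018-12412181, minus strand) and CR32661 (399.6 CPM, X:11917806-11918678, minus strand). Of these, 4 are X-linked. Per kilobase of exon the order changed: CR9284 had 1264 CPM per kb, CR42862 811, CR32658 789, CR32661 611, CR32652 484 and roX1 138. None of the 6 was called in any of the 9 comparisons. From here on CPM values are scaled by the effective library size, the library total times its composition factor.

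CR42862 had 6620.0, 4246, 4169 and 4633 CPM in injured and 4174, 4424, 4100.4 and 3859.8 CPM in uninjured homozygous libraries. In heterozygotes the values were 4315, 4150.5, 4592 and 3968 CPM injured and 5230.2, 4227, 4029 and 4685 CPM uninjured. Wild-type flies had 4317, 4508, 4222 and 4142 CPM injured and 4466, 4469.7, 4906 and 4403 CPM uninjured. Injured homozygous library 1 was the highest, and injured and uninjured libraries overlapped in every genotype. The injury differences did not pass the test in homozygotes (log2 0.25 ± 0.14, adjusted p = 0.288), heterozygotes (log2 -0.09 ± 0.14, adjusted p = 0.775) or wild type (log2 -0.09 ± 0.14, adjusted p = 0.828). Here and below a log2 value is a fold change with its standard error (SE), and the adjusted p is that of edgeR's quasi-likelihood F-test after Benjamini-Hochberg adjustment over all 13868 genes tested. A gene is called when it is under 0.05. Values after ± are SD over 4 libraries for CPM.

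roX1 had 1065, 754, 763 and 715 CPM in injured and 697, 844, 769 and 791 CPM in uninjured homozygous libraries. It had 696, 643, 747 and 716 CPM in injured and 905, 822, 695 and 877 CPM in uninjured heterozygous libraries. The wild-type values were 622, 698, 683 and 649 CPM injured and 684, 720.4, 840.5 and 710.1 CPM uninjured. Injured and uninjured libraries overlapped in every genotype, and the highest value again belonged to injured homozygous library 1. In injured flies all homozygous libraries lay above all wild-type ones, and this difference had the smallest adjusted p of the 9 comparisons (log2 0.31 ± 0.12, adjusted p = 0.184), and it did not pass. roX2 (X:11579065-11580432, plus strand), the shorter and less abundant partner, averaged 23.9 CPM per kb, against 138 for roX1. It had 33.1 ± 8.48 CPM in injured and 32.7 ± 6.95 CPM in uninjured homozygotes, and 29.1 ± 4.77 and 33.2 ± 2.54 CPM in injured and uninjured wild type (n = 4 each).

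Genes for the proteins that work with roX RNA were not called either. Of 6 MSL genes (the scaffold subunits msl-1 and msl-2, the chromodomain protein msl-3, the helicase mle, the acetyltransferase mof and the recruiting factor Clamp), 0 passed in any of the 9 comparisons by edgeR. The largest of their differences was msl-2 in homozygotes after injury (log2 0.41 ± 0.19, adjusted p = 0.194). The median over the 6 was 0.10 on the log2 scale there, against -0.01 over all genes tested. For msl-1, mle, mof, msl-3 and Clamp the same comparison gave log2 0.03 ± 0.16, adjusted p = 0.935; log2 0.10 ± 0.08, adjusted p = 0.464; log2 0.09 ± 0.14, adjusted p = 0.745; log2 0.10 ± 0.13, adjusted p = 0.687; and log2 -0.15 ± 0.08, adjusted p = 0.297.

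Hsromega (3R:21296127-21317836, plus strand) has the most exonic bases of the members, 21710, and 10.7 CPM per kb. It had 306, 215, 201 and 247 CPM in injured and 172, 229, 191 and 221 CPM in uninjured homozygous libraries. In wild type it had 199.6, 245, 277 and 207 CPM injured and 214, 217, 276 and 229 CPM uninjured. The groups overlapped in both genotypes, and the injury difference did not pass in homozygotes (log2 0.25 ± 0.15, adjusted p = 0.335), heterozygotes (log2 -0.02 ± 0.15, adjusted p = 0.956) or wild type (log2 -0.01 ± 0.15, adjusted p = 0.982). Its locus is known as a heat shock puff, and protein-coding heat shock genes changed in the same libraries. Of 15 heat shock genes tested after injury, 6 rose in homozygotes, 9 in heterozygotes and 5 in wild type, and none fell. Over all genes tested 4.71%, 3.24% and 3.35% were called higher in homozygotes, heterozygotes and wild type. The chaperone gene Hsp70Ab rose in all 3 (log2 2.73 ± 0.31, adjusted p = 5.43e-06 in homozygotes; log2 2.8 ± 0.31, adjusted p = 9.6e-06 in heterozygotes; log2 2.14 ± 0.30, adjusted p = 8.3e-05 in wild type), as did its copy Hsp70Bbb (log2 1.79 ± 0.25, adjusted p = 5.72e-05; log2 1.9 ± 0.25, adjusted p = 3.95e-05; log2 1.5 ± 0.24, adjusted p = 0.000417). The Hsp70 copies are nearly identical, so how their reads were divided is uncertain. Of 8 genes for proteins held in omega speckles or related RNA-binding proteins, 0 passed in any comparison by edgeR. After injury in homozygotes their smallest adjusted p-values were those of caz (log2 0.54 ± 0.18, adjusted p = 0.0862) and sqd (log2 0.43 ± 0.19, adjusted p = 0.191). The 8 genes summed to 2184, 1305, 1352 and 1273 CPM in injured homozygous libraries 1 to 4. The part of library 1 in these differences was not tested.

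Of the other members with a described role, noe (3L:17400272-17401348, minus strand), an RNA described in the nervous system, had 38.8 ± 17.3 CPM in injured and 25.7 ± 2.31 CPM in uninjured homozygotes (log2 0.58 ± 0.23, adjusted p = 0.146), with the injured SD set largely by library 1 at 63.3 CPM. cherub (3R:11247631-11256123, minus strand), which is known from fly brain tumours, averaged 0.676 CPM per kb, and iab8 (3R:16831116-16923231, minus strand), the bithorax transcript that carries mir-iab-8 and is needed for fertility, had 1.04 CPM per kb. Neither was called in any comparison. After injury cherub gave log2 0.05 ± 0.30, adjusted p = 0.946 in homozygotes and iab8 gave log2 -0.20 ± 0.20, adjusted p = 0.591.

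Few lncRNAs were called after injury, and those called higher were largely shared between genotypes. Of the 228, 13 were called after injury in homozygotes (6 higher, 7 lower), 3 in heterozygotes (all higher) and 4 in wild type (all higher). Over all genes tested the shares called were 5.86% in homozygotes (4.71% higher, 1.15% lower), 4.74% in heterozygotes (3.24% higher, 1.5% lower) and 3.79% in wild type (3.35% higher, 0.433% lower). The members' shares were 5.7%, 1.32% and 1.75%, so the lncRNAs were called at about the background share in homozygotes and below it in heterozygotes and wild type. CR45256, CR42491 and CR45018 were called higher in all 3 genotypes, which is 23.1% of the 13 in homozygotes, 100% of the 3 in heterozygotes and 75% of the 4 in wild type. Like shares of shared calls over all genes are not given.

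CR45256 (2R:15025104-15025665, plus strand) is a single-exon gene on 2R, 265 bases from Obp51a on the other strand. It had 9.3, 5.7, 4.88 and 6.69 CPM in injured and 2.89, 3.97, 3.49 and 4.64 CPM in uninjured homozygous libraries. It had 6.68, 6.41, 9.6 and 9.81 CPM in injured and 2.32, 3.22, 3.58 and 4.53 CPM in uninjured heterozygous libraries. Wild-type libraries had 7.61, 9.85, 11.7 and 8.73 CPM injured and 2.55, 4.12, 3.7 and 4.43 CPM uninjured. In every genotype all injured libraries lay above all uninjured ones. The increases were log2 0.81 ± 0.24, adjusted p = 0.0434 in homozygotes, log2 1.24 ± 0.23, adjusted p = 0.002 in heterozygotes and log2 1.33 ± 0.23, adjusted p = 0.000908 in wild type. In homozygotes the call ended without homozygous injured libraries 1 or 2 or homozygous uninjured libraries 1, 2 or 3 (highest adjusted p 0.159) and in a fit on the compared groups only (adjusted p = 0.128). Obp51a, which encodes an odorant-binding protein, did not pass (log2 -0.26 ± 0.14, adjusted p = 0.29 in homozygotes; log2 -0.16 ± 0.14, adjusted p = 0.606 in heterozygotes; log2 -0.07 ± 0.14, adjusted p = 0.865 in wild type).

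CR42491 (X:762615-763810, minus strand) overlaps the ribosomal protein gene RpL22 on the same strand, which covers 50.5% of its exon bases, and holds the small nucleolar RNA gene snoRNA:Psi18S-531. Small nucleolar RNAs guide the chemical modification of ribosomal RNA. It had 26.4, 51.5, 47.2 and 43.9 CPM in injured and 25.2, 18.1, 24.8 and 21.7 CPM in uninjured homozygous libraries. The heterozygous values were 49.3, 51.4, 57.6 and 36 CPM injured and 20.8, 18, 29.7 and 31.9 CPM uninjured, and the wild-type values 46.6, 39.1, 36.4 and 48.2 CPM injured and 21.1, 22.8, 23.6 and 18.3 CPM uninjured. In each genotype all injured libraries lay above the uninjured ones, injured homozygous library 1 by the least. The increases were of like size, with log2 0.91 ± 0.20, adjusted p = 0.00507 in homozygotes, log2 0.95 ± 0.19, adjusted p = 0.00416 in heterozygotes and log2 0.99 ± 0.20, adjusted p = 0.00313 in wild type. The heterozygous call ended in a fit on the compared groups only (adjusted p = 0.05). RpL22 itself did not pass (log2 0.07 ± 0.13, adjusted p = 0.775; log2 -0.01 ± 0.13, adjusted p = 0.989; log2 0.01 ± 0.13, adjusted p = 0.977). How reads of the shared exon bases were divided between the 2 genes is uncertain.

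CR45018 (X:13304005-13308004, plus strand) lies within IP3K2, which encodes an inositol trisphosphate kinase, on the same strand, and 35.8% of its exon bases are shared with it. It had 32.4, 19.6, 13.9 and 16 CPM in injured and 7.67, 5.71, 10.3 and 7.84 CPM in uninjured homozygous libraries. It had 18.9, 18.9, 18.6 and 16.8 CPM in injured and 6.82, 9.9, 7.76 and 9.72 CPM in uninjured heterozygous libraries. The wild-type values were 14.3, 15.3, 18.5 and 14.8 CPM injured and 6.81, 9.76, 9.26 and 7.77 CPM uninjured. Injured and uninjured libraries did not overlap in any genotype. The increases were log2 1.36 ± 0.21, adjusted p = 0.000252 in homozygotes, log2 1.1 ± 0.21, adjusted p = 0.00251 in heterozygotes and log2 0.89 ± 0.21, adjusted p = 0.0161 in wild type, the last ending without wild-type injured library 3 or wild-type uninjured libraries 1 or 4 (highest adjusted p 0.0811). IP3K2 moved with it: it rose in homozygotes (log2 0.64 ± 0.13, adjusted p = 0.00438) and heterozygotes (log2 0.53 ± 0.13, adjusted p = 0.0216) and did not pass in wild type (log2 0.43 ± 0.13, adjusted p = 0.0854). The part of shared reads in the lncRNA values was not tested.

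CR43654 (3R:22777567-22781465, minus strand), which overlaps CG7029 on the opposite strand, was called higher in homozygotes and in wild type. It had 101, 64.8, 45.7 and 51.5 CPM in injured and 41, 34.7, 31.2 and 39.2 CPM in uninjured homozygous libraries, and 61.8, 50.3, 48.5 and 56.5 CPM in injured and 33.4, 36.2, 34 and 35.3 CPM in uninjured wild-type libraries. The groups were separate in both genotypes, with homozygous library 1 far above the rest. The increase was log2 0.84 ± 0.18, adjusted p = 0.00524 in homozygotes and log2 0.64 ± 0.18, adjusted p = 0.0474 in wild type, where the call ended without any 1 of the 8 libraries (highest adjusted p 0.14), with RLE size factors (adjusted p = 0.0613) and with a replicate block (adjusted p = 0.0513). The homozygous call ended in a fit on the compared groups only (adjusted p = 0.0937). In heterozygotes (53.8 ± 10.4 CPM injured, 39.9 ± 4.16 CPM uninjured, n = 4 each) it did not pass (log2 0.44 ± 0.18, adjusted p = 0.183). CG7029 on the other strand rose in homozygotes (log2 0.41 ± 0.12, adjusted p = 0.0367) and did not pass in wild type (log2 0.11 ± 0.12, adjusted p = 0.743).

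**Figure D2:**
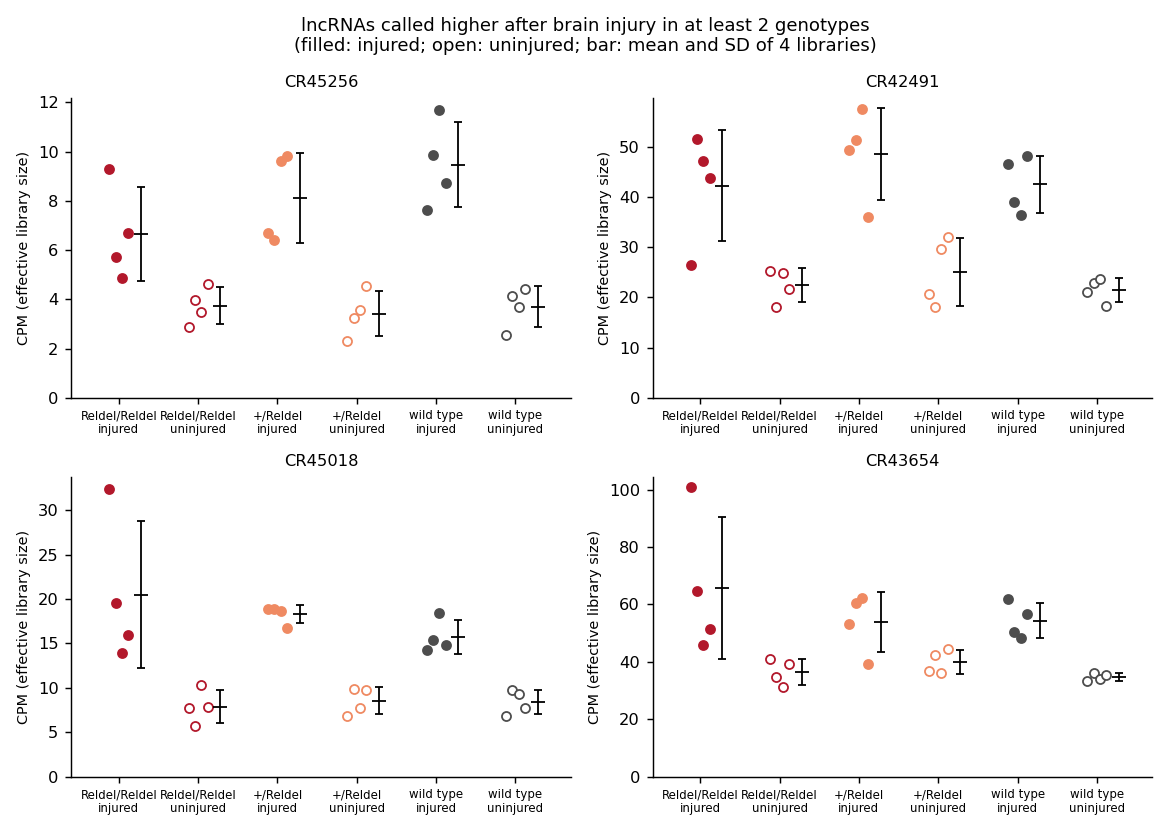
CPM of the effective library size in every library for the 4 lncRNAs called higher after injury in at least 2 genotypes, with injured libraries (filled) left of uninjured ones (open) in homozygotes, heterozygotes and wild type; bars are mean and SD of 4 libraries. CR45256, CR42491 and CR45018 show no overlap between injured and uninjured libraries in any genotype, and CR43654 has its highest value, 101 CPM, in injured homozygous library 1.

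The deposited transcript table divides these genes further, and 2 genes were picked here after their values were seen, so the shares are given without a test. In CR45018 the shortest of 3 transcripts, FBtr0344173 (1858 bases), took 11.5, 32.3, 39.5 and 42.9% of the gene's estimated counts in injured and 0, 4.35, 0 and 0% in uninjured homozygous libraries. It took 40.6, 45.1, 33.3 and 51.2% in injured and 6.82, 8.54, 0 and 8.62% in uninjured heterozygous libraries. In wild type it took 21.3, 34, 39.4 and 21.7% injured and 0, 18.3, 3.33 and 0% uninjured. The injured libraries thus lay above the uninjured ones in every genotype. The whole gene had only 48 to 142 counts in uninjured and 94 to 253 counts in injured libraries, so its small shares rest on few reads.

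CR42862, whose total did not pass in any comparison, showed a like pattern in 1 of its 5 transcripts. FBtr0309036 (5427 bases) took 7.37, 9.81, 8.62 and 9.77% in injured and 3.27, 2.58, 2.95 and 3.0% in uninjured homozygous libraries. It took 8.51, 8.49, 9.39 and 5.71% in injured and 3.6, 3.55, 3.11 and 2.86% in uninjured heterozygous libraries, and 9.06, 6.6, 9.01 and 6.34% in injured and 3.26, 2.35, 2.24 and 3.36% in uninjured wild-type libraries. No injured library overlapped an uninjured one in any genotype. Both transcripts were picked after their values were seen, and how many other transcripts separate in this way is not given. The main transcript, FBtr0304059, took 75.4 ± 2.38%, 75.3 ± 3.6% and 77.3 ± 2.6% in injured and 83.3 ± 1.05%, 83.7 ± 0.649% and 84.9 ± 1.37% in uninjured homozygotes, heterozygotes and wild type, in that order. The counts of FBtr0309036 were 1026 to 6026 per library, and transcripts of a gene share bases, so their estimated counts depend on how RSEM divided shared reads.

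**Figure D3:**
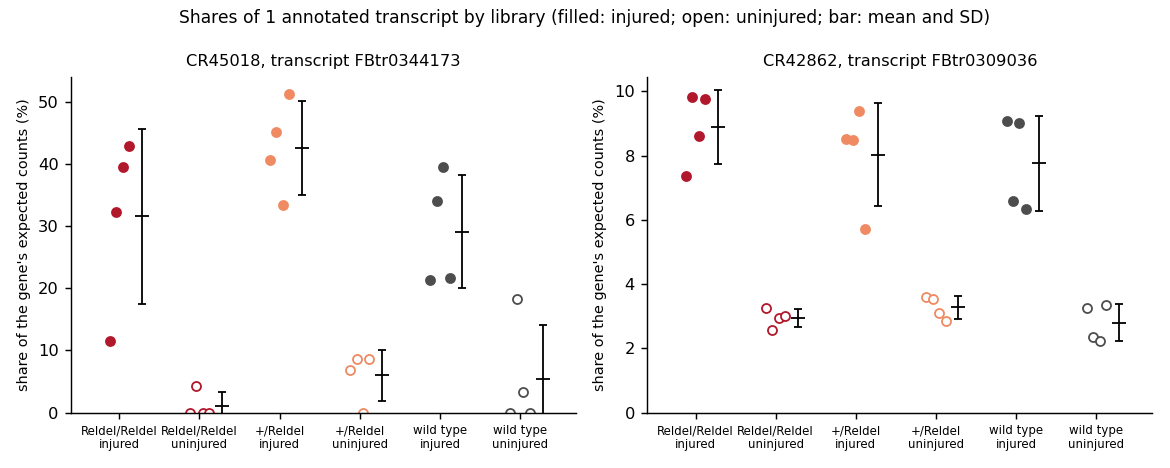
Share of the gene's estimated counts (%) taken by FBtr0344173 of CR45018 and FBtr0309036 of CR42862 in every library, with injured (filled) left of uninjured (open) in homozygotes, heterozygotes and wild type; bars are mean and SD of 4 libraries. In both panels the injured libraries lie above the uninjured ones of the same genotype, at 5.71% to 9.81% against 2.24% to 3.6% for CR42862.

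Some members overlap small RNA genes on the same strand, a grouping made after the values were seen. Called after injury in at least 1 genotype were 2 of 2 members over snoRNA genes (CR42491 and CR45184), 1 of 9 over microRNA genes and 0 of 3 over hairpin RNA genes. Over all members 13 of 228 (5.7%) were called in at least 1 injury comparison, and over all genes tested 9.08%. CR45184 (3L:826720-830190, minus strand) has 7 exon blocks, holds 5 snoRNA genes and lies within Sf3b3, a gene of a splicing factor subunit that covers 94.7% of its exon bases. It had 67.3, 55, 51.4 and 54.4 CPM in injured and 37.5, 41, 50.5 and 41 CPM in uninjured homozygous libraries, without overlap (log2 0.42 ± 0.13, adjusted p = 0.0474). The call ended without homozygous injured libraries 1 or 2 or homozygous uninjured libraries 1, 2 or 4 (highest adjusted p 0.153), and also without the filter on low counts (adjusted p = 0.0552), with a replicate block (adjusted p = 0.0582) and in a fit on the compared groups only (adjusted p = 0.161). Heterozygotes (log2 0.40 ± 0.12, adjusted p = 0.0686) and wild type (log2 0.40 ± 0.13, adjusted p = 0.086) gave differences of nearly the same size that did not pass. Sf3b3 gave log2 0.48 ± 0.19, adjusted p = 0.134 in homozygotes. Genes for the proteins that pack snoRNAs rose in the same libraries: of 6, 4 rose in homozygotes, 5 in heterozygotes and 5 in wild type, and none fell. The shares called higher over all genes tested were 4.71%, 3.24% and 3.35%, in that order. For hoip the increases were log2 0.93 ± 0.21, adjusted p = 0.00669 in homozygotes, log2 1.49 ± 0.21, adjusted p = 7.99e-05 in heterozygotes and log2 1.57 ± 0.21, adjusted p = 4.57e-05 in wild type, and for nop5 they were log2 0.61 ± 0.14, adjusted p = 0.00778, log2 0.84 ± 0.14, adjusted p = 0.000423 and log2 1.19 ± 0.14, adjusted p = 1.2e-05. Nop60B, the pseudouridine synthase of these particles, rose as well (log2 0.77 ± 0.14, adjusted p = 0.00117; log2 0.81 ± 0.14, adjusted p = 0.000912; log2 1.0 ± 0.14, adjusted p = 8.63e-05).

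The member over a microRNA gene that was called after injury, CR43650 (2R:16829095-16839494, plus strand), holds mir-8, a microRNA conserved in animals and known in flies for its action on growth. It had 12.2, 8.78, 9.42 and 10.4 CPM in injured and 14.9, 29.4, 13.4 and 23.7 CPM in uninjured homozygous libraries, all injured values lying below the uninjured ones (log2 -1.0 ± 0.24, adjusted p = 0.0123). The call ended without homozygous uninjured libraries 2 or 4 (highest adjusted p 0.0735) and in a fit on the compared groups only (adjusted p = 0.074). It did not pass in heterozygotes (log2 -0.44 ± 0.23, adjusted p = 0.324) or wild type (log2 -0.50 ± 0.23, adjusted p = 0.325). The adjacent gene CG34460, 1340 bases away on the same strand, also fell in homozygotes (log2 -0.84 ± 0.19, adjusted p = 0.00685). The host of mir-277 and mir-34, CR43459, gave log2 -0.19 ± 0.20, adjusted p = 0.613 in homozygotes, log2 -0.11 ± 0.20, adjusted p = 0.83 in heterozygotes and log2 -0.46 ± 0.21, adjusted p = 0.307 in wild type.

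The other injury calls were made in homozygotes alone, and whether the genotypes differ is the subject of the tests below. CR43146 (3L:13282393-13283410, plus strand) rose (log2 1.76 ± 0.39, adjusted p = 0.00627), with 22.2, 6.29, 3.66 and 6.91 CPM in injured and 2.29, 3.64, 2.47 and 2.67 CPM in uninjured homozygous libraries. The groups did not overlap, though the lowest injured library and the highest uninjured one were close. Without injured homozygous library 1 the increase was 1.00 on the log2 scale (adjusted p = 0.0332). With all libraries, its call ended in a fit on the compared groups only (adjusted p = 0.106). CR43684 fell (log2 -0.59 ± 0.15, adjusted p = 0.0183), with 23.1, 25.4, 36.7 and 38 CPM in injured and 42.2, 49.9, 44.8 and 49.9 CPM in uninjured homozygous libraries, and this call ended without homozygous injured libraries 1 or 2 or homozygous uninjured libraries 2 or 4 (highest adjusted p 0.0757) and in a fit on the compared groups only (adjusted p = 0.132). CR43196, CR43418, CR43811, CR44039 and CR44672 were low in level, under 15 CPM in every homozygous library, and fell (log2 -0.85 ± 0.23, adjusted p = 0.0271; log2 -0.79 ± 0.21, adjusted p = 0.0238; log2 -0.94 ± 0.27, adjusted p = 0.0377; log2 -0.95 ± 0.27, adjusted p = 0.0368; and log2 -0.87 ± 0.25, adjusted p = 0.0419). Injured and uninjured libraries overlapped for CR44039 and CR44672. Each of these 5 calls ended without at least 4 of the 8 libraries: for CR43196 without homozygous injured libraries 1, 2 or 3 or homozygous uninjured libraries 2, 3 or 4 (highest adjusted p 0.09), for CR43418 without homozygous injured libraries 3 or 4 or homozygous uninjured libraries 1 or 4 (highest adjusted p 0.0839) and in a fit on the compared groups only (adjusted p = 0.0614), for CR43811 without homozygous injured libraries 2 or 3 or homozygous uninjured libraries 1, 2, 3 or 4 (highest adjusted p 0.115) and with a replicate block (adjusted p = 0.0598), for CR44039 without homozygous injured libraries 2 or 3 or homozygous uninjured libraries 1, 2 or 4 (highest adjusted p 0.142) and in a fit on the compared groups only (adjusted p = 0.14) and for CR44672 without homozygous injured libraries 1, 3 or 4 or homozygous uninjured libraries 1, 2 or 4 (highest adjusted p 0.16) and in a fit on the compared groups only (adjusted p = 0.117).

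The count of 13 in homozygotes was itself set by single libraries: it was 8 without injured library 2, 21 without injured library 4, and 7, 5 and 5 without uninjured libraries 1, 2 and 4. In heterozygotes the count of 3 became 5 without injured library 3 and 5 without uninjured library 3. In wild type the count of 4 became 2 without injured library 3, 2 without uninjured library 1 and 2 without uninjured library 4.

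Most members had a negative fold change after injury, although those called in heterozygotes and wild type were all higher. In wild type 188 of the 228 members had a log2 fold change below 0, with a median of -0.17, against -0.01 over all genes tested. In homozygotes 173 lay below 0 (median -0.16, against -0.01), and in heterozygotes 157 (median -0.07, against -0.01). These are descriptions of the libraries and not tests. Members took 1.17% to 1.61% of the counts in injured and 1.23% to 1.35% in uninjured homozygous libraries, and 1.15% to 1.28% in injured and 1.27% to 1.42% in uninjured wild-type libraries.

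The study asks whether the Rel genotype alters the response to injury, which the difference of 2 injury responses tests directly. Of the 228 lncRNAs, 0 were called for homozygotes minus wild type and 0 for heterozygotes minus wild type by edgeR, and 0% of all genes tested were called. At an unadjusted p under 0.05 there were 4 and 1 lncRNAs, among 647 and 363 genes. DESeq2 called 0 and 0 lncRNAs, and 3 and 0 genes. For the members with injury calls above, the differences between the homozygous and wild-type responses were log2 -0.53 ± 0.33, adjusted p = 0.934 for CR45256, log2 -0.07 ± 0.28, adjusted p = 0.972 for CR42491, log2 0.46 ± 0.30, adjusted p = 0.934 for CR45018 and log2 1.34 ± 0.51, adjusted p = 0.934 for CR43146. The calls made in homozygotes alone are therefore not shown to differ from wild type.

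More lncRNAs were called between homozygotes and wild type than after injury in either genotype. Between homozygotes and wild type, 26 of the 228 were called in injured flies (13 higher, 13 lower) and 19 in uninjured flies (10 higher, 9 lower). These are 11.4% and 8.33% of the members. Over all genes tested the shares were 4.28% in injured flies (1.93% higher, 2.35% lower) and 3.96% in uninjured flies (1.99% higher, 1.97% lower). Between heterozygotes and wild type 1 lncRNA was called in each state, 0.439% of the members, against 0.296% of all genes in injured flies (0.216% higher, 0.0793% lower) and 0.498% in uninjured flies (0.389% higher, 0.108% lower). The comparisons of homozygotes and heterozygotes with wild type share the wild-type libraries.

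The largest difference was that of CR43306 (3L:18294604-18295800, plus strand), a gene of 3 exon blocks and 621 exonic bases with no overlapping gene. In injured flies it had 11.2, 6.73, 12 and 12 CPM in homozygous, 5.65, 5.59, 6.46 and 4.9 CPM in heterozygous and 0.913, 1.3, 0.282 and 0.582 CPM in wild-type libraries. In uninjured flies it had 14.5, 13.9, 13.2 and 12.8 CPM in homozygous, 6.12, 7.51, 7.38 and 5.45 CPM in heterozygous and 0.284, 0.807, 0.309 and 0.932 CPM in wild-type libraries. Every homozygous library lay above every heterozygous one of the same state, and every heterozygous one above every wild-type one. Wild-type libraries held only 2 to 17 counts of it, so its fold changes are imprecise. The increases over wild type were log2 3.7 ± 0.30, adjusted p = 9.91e-09 in injured and log2 4.45 ± 0.30, adjusted p = 4.84e-10 in uninjured homozygotes, and log2 2.81 ± 0.30, adjusted p = 7.68e-06 in injured and log2 3.41 ± 0.31, adjusted p = 2.84e-07 in uninjured heterozygotes. It was the only member called between heterozygotes and wild type. All 4 calls held when any library was left out. Its neighbour CG5103, 342 bases away on the other strand, did not pass in homozygotes (log2 -0.16 ± 0.23, adjusted p = 0.775 injured; log2 0.11 ± 0.23, adjusted p = 0.955 uninjured).

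Lower in homozygotes was CR43684 (3L:15062207-15062622, minus strand), a gene of 416 bases within Sytbeta, which encodes a synaptotagmin, on the same strand but sharing no exon bases. Injured flies had 23.1, 25.4, 36.7 and 38 CPM in homozygous, 65.1, 84, 93.9 and 77.1 CPM in heterozygous and 107, 108, 108 and 116 CPM in wild-type libraries. Uninjured flies had 42.2, 49.9, 44.8 and 49.9 CPM in homozygous, 87.3, 125, 95.3 and 95 CPM in heterozygous and 121, 114, 123 and 147 CPM in wild-type libraries. Homozygous libraries lay below all others in both states. The differences were log2 -1.82 ± 0.15, adjusted p = 1.6e-08 in injured and log2 -1.43 ± 0.15, adjusted p = 6.19e-07 in uninjured flies. Sytbeta did not pass (log2 0.36 ± 0.18, adjusted p = 0.322; log2 0.17 ± 0.18, adjusted p = 0.836). In heterozygotes CR43684 did not pass (log2 -0.46 ± 0.15, adjusted p = 0.355 injured; log2 -0.33 ± 0.14, adjusted p = 0.469 uninjured).

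CR43146, on the same arm, had 22.2, 6.29, 3.66 and 6.91 CPM in injured homozygous and 22.5, 22.4, 20.9 and 27.6 CPM in injured wild-type libraries (log2 -1.32 ± 0.35, adjusted p = 0.0296). These groups overlapped through injured homozygous library 1, without which the difference was -2.07 on the log2 scale (adjusted p = 1.12e-05). In uninjured flies it had 2.29, 3.64, 2.47 and 2.67 CPM in homozygous and 14.2, 21.1, 20.8 and 13.9 CPM in wild-type libraries, with no overlap (log2 -2.66 ± 0.38, adjusted p = 5.45e-05). The injured call ended without homozygous injured libraries 2, 3 or 4 or wild-type injured libraries 1, 2 or 4 (highest adjusted p 0.0969) and in a fit on the compared groups only (adjusted p = 0.245). The gene 253 bases away on the other strand, lncRNA:CR43913, which is too low to be a member, fell with it (log2 -1.93 ± 0.31, adjusted p = 0.000208 injured; log2 -1.78 ± 0.29, adjusted p = 0.000298 uninjured). Also close by, CR43912 (3L:13287769-13291770, minus strand), fell in injured homozygotes (log2 -0.78 ± 0.22, adjusted p = 0.0483), a call that ended without homozygous injured libraries 2, 3 or 4 or wild-type injured libraries 1, 3 or 4 (highest adjusted p 0.2), and also with RLE size factors (adjusted p = 0.052), without the filter on low counts (adjusted p = 0.0519), with a replicate block (adjusted p = 0.0715) and in a fit on the compared groups only (adjusted p = 0.0866).

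Several lower members were apart in every library. CR44136 (3R:30624829-30625592, minus strand) had 2.09, 2.48, 2.11 and 2.23 CPM in uninjured homozygous and 11.4, 9.28, 8.18 and 6.99 CPM in uninjured wild-type libraries (log2 -1.99 ± 0.29, adjusted p = 7.77e-05), and it was also lower in injured flies (log2 -1.92 ± 0.30, adjusted p = 0.000143). CR45103 (3R:18157693-18158297, plus strand) had 3.38 ± 1.08 CPM in uninjured homozygotes and 11.1 ± 1.74 CPM in uninjured wild type (log2 -1.71 ± 0.26, adjusted p = 0.000127), with log2 -1.8 ± 0.27, adjusted p = 9.61e-05 in injured flies. CR43612 (3L:12541710-12542953, plus strand), which overlaps sowah on the opposite strand, had 3.27 ± 0.784 CPM in uninjured homozygotes and 10.9 ± 3.4 CPM in uninjured wild type (log2 -1.75 ± 0.27, adjusted p = 0.000142), with log2 -1.82 ± 0.29, adjusted p = 0.000182 in injured flies. None of these 3 had overlapping groups in either state, and all 6 calls held when any library was left out. sowah did not pass (log2 0.22 ± 0.13, adjusted p = 0.419; log2 0.16 ± 0.13, adjusted p = 0.716).

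CR45877 (3L:9999831-10000867, plus strand) lies within dpr6, which encodes an immunoglobulin-domain protein of neurons. It had 5.07 ± 1.34 CPM in injured homozygotes and 10.8 ± 1.58 CPM in injured wild type (log2 -1.07 ± 0.21, adjusted p = 0.00263), and 5.78 ± 1.08 CPM in uninjured homozygotes and 12.4 ± 1.81 CPM in uninjured wild type (log2 -1.11 ± 0.21, adjusted p = 0.00136, n = 4 each). The next gene on the same strand, lncRNA:CR45876, which is too low to be a member, fell as well (log2 -1.74 ± 0.41, adjusted p = 0.0125 injured; log2 -2.4 ± 0.40, adjusted p = 0.000382 uninjured), whereas dpr6 did not pass (log2 0.23 ± 0.31, adjusted p = 0.765; log2 -0.28 ± 0.31, adjusted p = 0.842).

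The remaining lower calls were smaller or less steady. CR43304 on 2L fell in uninjured (log2 -1.07 ± 0.23, adjusted p = 0.00468) and injured homozygotes (log2 -0.88 ± 0.23, adjusted p = 0.0272), where the groups overlapped and the call ended without homozygous injured libraries 2 or 3 or wild-type injured libraries 2 or 4 (highest adjusted p 0.102), and also with a replicate block (adjusted p = 0.0544) and in a fit on the compared groups only (adjusted p = 0.145). CR44711 on X fell in uninjured (log2 -1.58 ± 0.37, adjusted p = 0.011) and injured homozygotes (log2 -1.39 ± 0.39, adjusted p = 0.0408). Its uninjured call ended without homozygous uninjured libraries 1 or 3 (highest adjusted p 0.0541), and its injured call without any 1 of the 8 libraries (highest adjusted p 0.149). CR44593 on 2L fell in uninjured homozygotes (log2 -1.01 ± 0.22, adjusted p = 0.00662), whichever library was left out. In injured homozygotes CR44345 (log2 -1.11 ± 0.29, adjusted p = 0.0265), CR43491 (log2 -0.73 ± 0.19, adjusted p = 0.0291), CR43650 (log2 -0.90 ± 0.24, adjusted p = 0.0322) and CR44672 (log2 -0.97 ± 0.25, adjusted p = 0.0265) also fell, and only CR43491 had overlapping groups. These calls ended without homozygous injured libraries 2, 3 or 4 or wild-type injured libraries 2 or 4 (highest adjusted p 0.0867) for CR44345, without homozygous injured libraries 3 or 4 or wild-type injured libraries 1 or 4 (highest adjusted p 0.0992) for CR43491, without homozygous injured libraries 2, 3 or 4 or wild-type injured libraries 2, 3 or 4 (highest adjusted p 0.0868) for CR43650 and without homozygous injured libraries 1, 3 or 4 or wild-type injured libraries 2, 3 or 4 (highest adjusted p 0.0866) for CR44672. In a fit on the compared groups only, the calls of CR44345 (adjusted p = 0.0601), CR43491 (adjusted p = 0.132) and CR44672 (adjusted p = 0.0564) ended, and that of CR43650 did not.

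Among the higher lncRNAs, CR43939 (3L:21576033-21577219, minus strand), which overlaps a hairpin RNA gene, had 54, 32.9, 42.1 and 53 CPM in injured homozygous, 34.1, 35.2, 37.8 and 29.7 CPM in heterozygous and 21.3, 23.4, 18 and 23.1 CPM in wild-type libraries. Without injury it had 52.5, 57.4, 47.6 and 64.9 CPM in homozygous, 36, 42.1, 34.5 and 30.7 CPM in heterozygous and 24.3, 27.6, 26.9 and 35 CPM in wild-type libraries. Homozygous and wild-type libraries were apart in both states, with log2 1.08 ± 0.15, adjusted p = 4.96e-05 in injured and log2 0.96 ± 0.15, adjusted p = 0.000163 in uninjured flies. CR46017 (3R:12614392-12615200, minus strand) had 8.67, 7.86, 7.12 and 8.2 CPM in uninjured homozygous and 4.12, 4.44, 3.86 and 3.65 CPM in uninjured wild-type libraries, again apart, with log2 1.39 ± 0.17, adjusted p = 9.13e-06 in injured and log2 0.99 ± 0.17, adjusted p = 0.000511 in uninjured flies. CR44922 (3R:4375084-4377600, plus strand) rose in injured (log2 1.5 ± 0.22, adjusted p = 8.63e-05) and uninjured homozygotes (log2 1.04 ± 0.22, adjusted p = 0.00465), with 60.1 ± 22.4 and 21 ± 3.22 CPM in injured homozygotes and wild type. These 6 calls held when any library was left out.

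CR44643 on 2R, CR45982 within the peroxidasin gene Pxn on the other strand, and CR46007 within side-VI on the other strand rose in both states. For CR44643 the increases were log2 0.89 ± 0.20, adjusted p = 0.0091 injured, ending in a fit on the compared groups only (adjusted p = 0.116), and log2 0.85 ± 0.19, adjusted p = 0.00847 uninjured, the second ending without wild-type uninjured library 3 (highest adjusted p 0.0513). For CR45982 they were log2 0.63 ± 0.18, adjusted p = 0.0424 injured, ending without homozygous injured libraries 2, 3 or 4 or wild-type injured libraries 1, 2, 3 or 4 (highest adjusted p 0.124), and also with library totals (adjusted p = 0.0655), without the filter on low counts (adjusted p = 0.0515), in a fit on the compared groups only (adjusted p = 0.151) and with DESeq2 (adjusted p = 0.0529), and log2 0.91 ± 0.17, adjusted p = 0.00182 uninjured. For CR46007 (3R:11033380-11034203, minus strand) they were log2 0.67 ± 0.16, adjusted p = 0.0143 injured, ending in a fit on the compared groups only (adjusted p = 0.078), and log2 0.59 ± 0.16, adjusted p = 0.0292 uninjured. The uninjured call ended without homozygous uninjured libraries 1, 2 or 4 or wild-type uninjured libraries 2 or 3 (highest adjusted p 0.137), and also with a replicate block (adjusted p = 0.0536) and in a fit on the compared groups only (adjusted p = 0.0546). side-VI, of the sidestep family of immunoglobulin-domain proteins, moved the other way: it fell in injured (log2 -1.7 ± 0.26, adjusted p = 0.000135) and uninjured homozygotes (log2 -2.31 ± 0.26, adjusted p = 2.27e-06). Pxn did not pass in either state.

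In uninjured homozygotes alone, CR45408 (log2 0.90 ± 0.19, adjusted p = 0.00477), CR43174 (log2 0.64 ± 0.15, adjusted p = 0.0112) and CR44039 (log2 1.08 ± 0.27, adjusted p = 0.0171) were called higher. The call of CR43174 ended without wild-type uninjured library 2 (highest adjusted p 0.0568), and that of CR44039, whose groups overlapped, without homozygous uninjured libraries 2 or 4 or wild-type uninjured libraries 1, 2 or 3 (highest adjusted p 0.0805). In injured homozygotes alone, CR44324 (log2 1.19 ± 0.19, adjusted p = 0.000178), CR44401 (log2 1.11 ± 0.24, adjusted p = 0.00628) and CR44535 (log2 1.23 ± 0.28, adjusted p = 0.00937) were called higher whichever library was left out. CR43456 (log2 1.49 ± 0.36, adjusted p = 0.0141), CR44175 (log2 0.98 ± 0.25, adjusted p = 0.0196) and CR43279 (log2 0.82 ± 0.24, adjusted p = 0.0478) were called less steadily. CR43456 had 27.9, 9.95, 5.56 and 9.77 CPM in injured homozygous and 3.35, 4.96, 4.93 and 5.02 CPM in injured wild-type libraries, and without injured homozygous library 1 its increase was 0.85 on the log2 scale. Its call ended without homozygous injured library 1 or wild-type injured library 1 (highest adjusted p 0.0956), that of CR44175 without homozygous injured library 1 or wild-type injured libraries 2 or 4 (highest adjusted p 0.0881) and that of CR43279, whose groups overlapped, without homozygous injured libraries 1 or 4 or wild-type injured libraries 1, 3 or 4 (highest adjusted p 0.222). The call of CR43456 also ended in a fit on the compared groups only (adjusted p = 0.148), that of CR44175 in a fit on the compared groups only (adjusted p = 0.0942) and that of CR43279 without the filter on low counts (adjusted p = 0.0515), with a replicate block (adjusted p = 0.0684) and in a fit on the compared groups only (adjusted p = 0.226). Each lncRNA of this paragraph also had the higher mean in homozygotes in the state where it was not called. A call in 1 state is not a difference between the states. That difference is the same contrast as the homozygous minus wild-type injury response, for which 0 of the 228 lncRNAs were called.

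**Figure D4:**
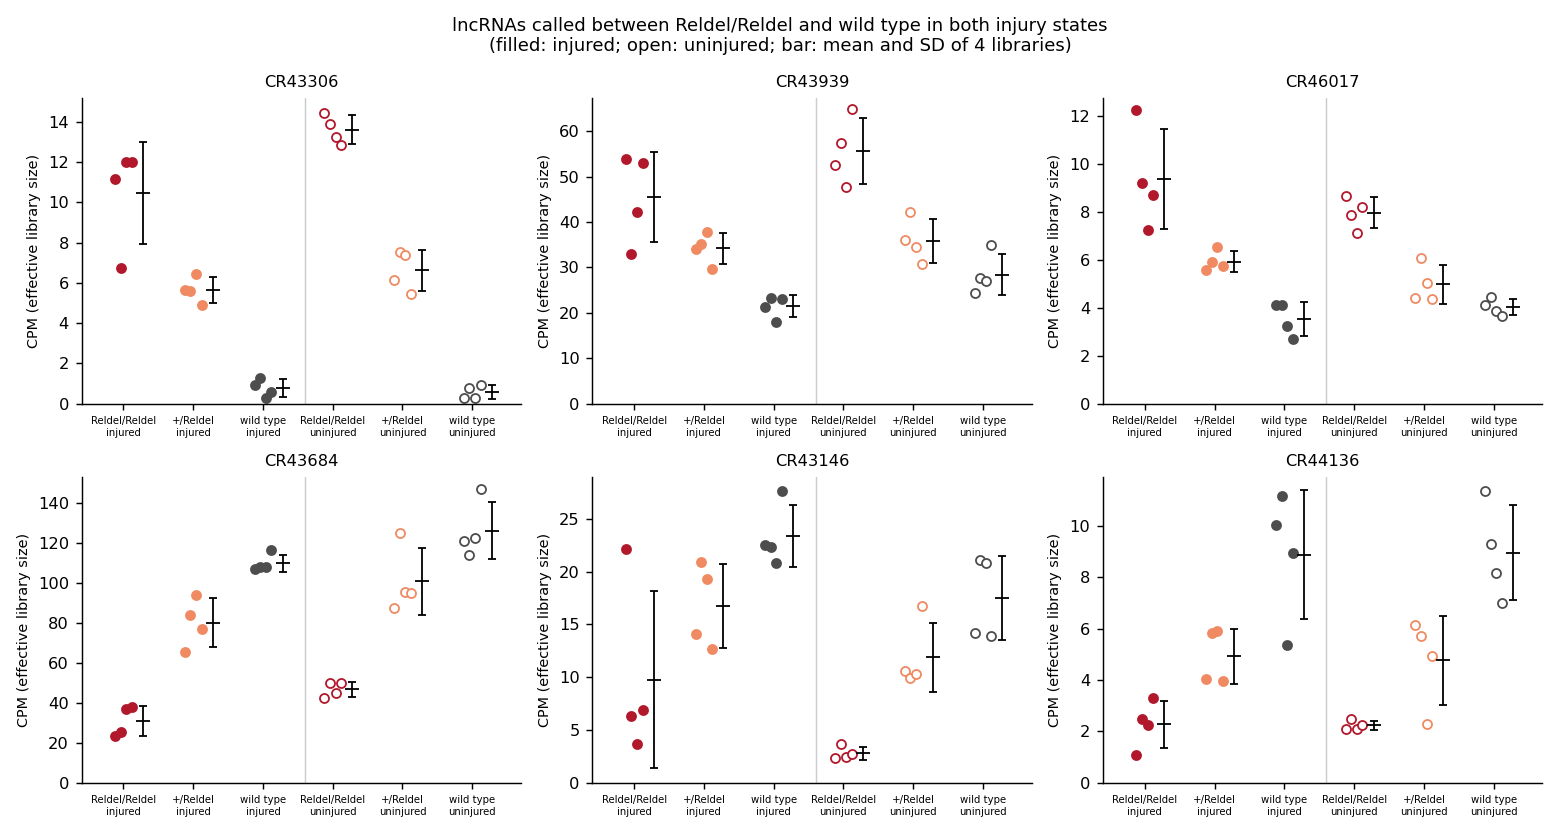
CPM of the effective library size in every library for 6 lncRNAs called between homozygotes and wild type in both states, with homozygotes, heterozygotes and wild type from left to right in injured (filled) and then uninjured flies (open); bars are mean and SD of 4 libraries. CR43306, CR43939 and CR46017 are higher in homozygotes and CR43684, CR43146 and CR44136 lower, and heterozygote means lie between the other 2 genotypes in each panel and state.

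Injured and uninjured flies are separate libraries, so the 2 comparisons of homozygotes with wild type can be set side by side. Called in both were 15 lncRNAs, 57.7% of the 26 in injured and 78.9% of the 19 in uninjured flies, and all 15 had the same direction. Across the 228 members, 166 had the same sign in both (72.8%), with Pearson's r = 0.855 and Spearman's rho = 0.687 over genes, a description without a test, since genes are not replicates. Over all genes tested Pearson's r was 0.742, and the shares called in both or alike in sign are not given. The members' Pearson's r includes CR43306, which stands alone at 4.45 in uninjured and 3.70 in injured flies. Without a Spearman's rho over all genes, the members are not shown to be more alike than other genes. The count of 26 in injured flies was 16 without injured wild-type library 4, the library with ovary markers, and 18 to 26 without any other single library. For uninjured flies the count of 19 was 16 to 22 when 1 library was left out.

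Heterozygote means lay between those of homozygotes and wild type for 23 of the 26 called members in injured flies, 88.5%, and for 19 of the 19 in uninjured flies. The exceptions were CR43912, CR44643 and CR44672. Among all genes called in the same comparisons the shares were 95.3% in injured and 93.3% in uninjured flies. Genes chosen because homozygotes and wild type differ favour such an order, so no test is given.

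The lncRNAs that differed by genotype lay mostly on the third chromosome, which carries Rel (3R:9044183-9047977, minus strand). Of 100 members on 3L and 3R, 19 were called in injured and 15 in uninjured homozygotes against wild type, 19% and 15%. Of 128 members on the other chromosomes 7 and 4 were called, 5.47% and 3.12%. The same held for all genes: 7.29% and 6.62% of 6121 genes tested on the third chromosome were called, against 1.91% and 1.84% of 7648 on the others. After injury in homozygotes 7% of the members on 3L and 3R and 4.69% of the others were called, and over all genes 5.77% and 5.95%. Within 5 Mb of Rel 3 of 19 members were called in injured and 4 of 19 in uninjured flies, beside 8.28% and 7.66% of the 1280 genes tested there. The called members reached from CR45982 and CR44535 near the tip of 3L to CR44136 at the far end of 3R. The Reldel allele and the rest of the third chromosome it was kept on cannot be told apart in this design.

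**Figure D5:**
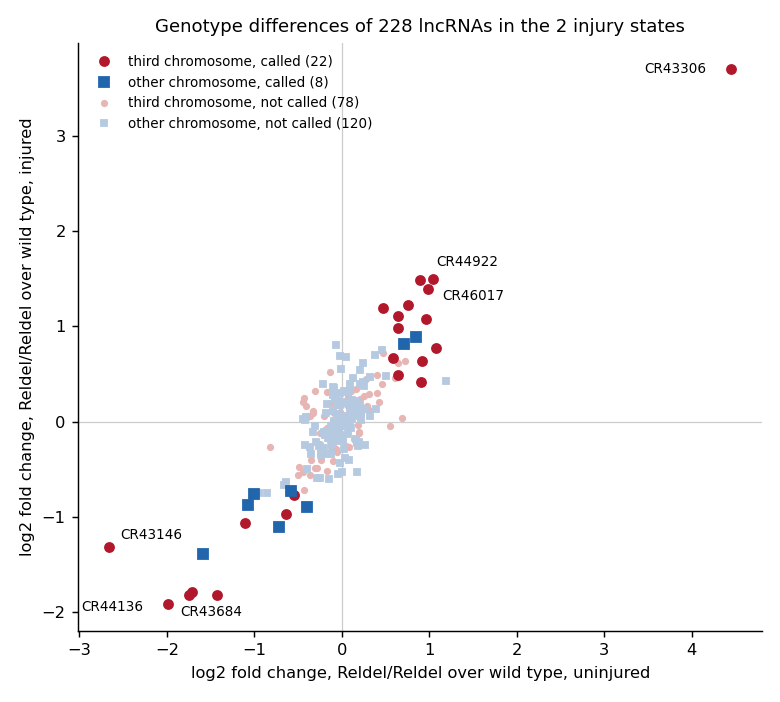
Log2 fold change of homozygotes over wild type in uninjured (x axis) and injured flies (y axis) for the 228 lncRNAs, coloured by chromosome and by whether the gene was called in at least 1 of the 2 comparisons. Of the 30 called genes 22 lie on the third chromosome and 8 elsewhere, and CR43306 stands alone at 4.45 and 3.70.

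Some cell type markers also differed. Over all genes tested, the shares called after injury were 4.71% higher and 1.15% lower in homozygotes. They were 3.24% and 1.5% in heterozygotes, and 3.35% and 0.433% in wild type. After injury 1 of 7 hemocyte markers was lower in homozygotes. In heterozygotes 2 of 7 hemocyte markers were lower after injury, and 2 of 13 muscle, 2 of 10 gut and 1 of 3 ovary markers higher. In wild type 1 of 10 gut and 1 of 3 ovary markers were higher after injury. Ovary sums of injured wild-type libraries 1 to 4 were 7.30, 5.12, 4.65 and 248 CPM, against 3.70 to 6.53 CPM in uninjured ones. No marker of testis, accessory gland, neurons, eye or fat body passed in an injury comparison. Hemocyte sums were 198 to 279 CPM in injured and 217 to 299.9 CPM in uninjured homozygous libraries, and 247 to 288 CPM in injured and 272 to 519 CPM in uninjured heterozygous libraries. Gut sums were 1107 to 2640 CPM in injured and 444 to 2679 CPM in uninjured heterozygous libraries, and 371 to 1722 CPM in injured and 193 to 968 CPM in uninjured wild-type libraries, with overlap in each case. Further markers differed between homozygotes and wild type. There 1.93% of all genes tested were called higher and 2.35% lower in injured flies, and 1.99% and 1.97% in uninjured flies. Of 13 eye markers 3 were lower in uninjured homozygotes, with summed levels of 6407 to 7374 CPM in uninjured homozygous and 7574 to 11831 CPM in uninjured wild-type libraries. Of 10 gut markers 2 were higher in uninjured homozygotes, and of 13 neuron markers 2 were higher in injured homozygotes. The neuron sums of injured homozygous libraries 1 to 4 were 3426, 1916, 1609 and 1476 CPM, against 1426 to 1795 CPM in injured wild-type libraries. The high end was thus library 1 alone, and the calls were not tested without it. Of 20 testis markers 1 was higher in uninjured homozygotes, and of 12 accessory gland markers 1 was lower in each state. Of 7 hemocyte markers tested 1 was lower in injured homozygotes, and 0 of 3 tested ovary markers passed. The part of tissue content in the lncRNA differences by injury or genotype was not tested.

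Spread within a group differed among lncRNAs. Each member's median coefficient of variation over the 6 groups had a median of 17.4%, with quartiles of 13.8% and 21.7%. Single groups could be wider, as with 86.0% for CR43146 in 1 group. For 49 members the highest of 24 libraries was less than 2 times the lowest, the smallest ratio being 1.45 for CR33987. For 5 members it was more than 10 times: CR43306 (51.3), CR43146 (12.1), CR43358 (10.7), CR44136 (10.5) and enrr (10.4). Of these, CR43358 and enrr were called in no comparison. In all, 38 members were called in at least 1 of the 9 comparisons and 190 in none; 13 were called in an injury comparison, 30 in a genotype comparison and 5 in both.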

How the data were processed

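RNA of whole male flies was sequenced in 24 libraries, 4 in each of 6 groups. The submitters' processing notes list RSEM 1.2.22, STAR 2.4.2a, CASAVA, dm6 as the build, and edgeR 3.10.5; the gene annotation and strand setting are not given in the sources used here. The authors deposited RSEM expected counts per gene and per transcript as whole numbers. Their own comparison tables were not used.

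The gene counts were tested with edgeR 4.0.16 in R 4.3.3: filterByExpr, TMM scaling and the two-sided quasi-likelihood F-test on all 24 libraries with 1 mean per group (18 residual degrees of freedom). P-values were Benjamini-Hochberg adjusted over 13868 genes and called under 0.05. Membership used CPM of the library total; other CPM values used the effective library size. Totals of 6543632 to 14660491 counts set the precision. Positions are 1-based dm6 coordinates from Ensembl release 115. The named lncRNAs are all those called, the 6 most abundant, those with a described role and those beside the threshold, with their neighbours; of the fixed gene lists the MSL genes are named in full, and at most 4 of any other by smallest adjusted p. The members and the lists were chosen with earlier results of these data known. Alternatives were RLE size factors, library totals, no filter, DESeq2 1.42.0, a fit on the compared groups, a replicate block and each library left out.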

Additional observations from a re-analysis of the deposited data

Results flagged for a closer look

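Within-group outliers were looked for in 125 pairs of a called lncRNA and a group of 4 libraries in a comparison that called it. Named lncRNAs called in no comparison, roX1 and CR42862 among them, were not examined in this way. In 7 of the 125 pairs, 1 library lay farther from the others than Dixon's 95% critical value for the gap over the range. The critical value is set to flag about 1 in 20 groups by chance. The 125 pairs share libraries and come from called lncRNAs, so no conclusion is drawn from that rate. In CPM, CR45018 was lowest in heterozygous injured library 4 at 16.76, with the next at 18.64. CR46007 was lowest in homozygous uninjured library 3 at 7.987 (next 10.34) and in wild-type uninjured library 2 at 5.407 (next 6.867). CR43306 was lowest in homozygous injured library 2 at 6.728 (next 11.16). CR43456 was lowest in wild-type injured library 1 at 3.348 (next 4.932). CR43684 was highest in wild-type injured library 4, the library with ovary markers, at 116.2 (next 108.1). CR45877 was lowest in wild-type injured library 3 at 8.455 (next 11.38).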

How the results depend on the processing

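Of 67 calls of a lncRNA in a comparison, 39 held whichever library was left out, 34 held under every alternative and 0 reversed. By comparison, 12 of 26 held under every alternative between injured homozygotes and injured wild type, 14 of 19 between the uninjured ones, 2 of 13 after injury in homozygotes, 2 of 3 in heterozygotes and 2 of 4 in wild type. With a fit on the compared groups only, 4 lncRNAs in place of 13 were called after injury in homozygotes, 2 in place of 3 in heterozygotes and 6 in place of 4 in wild type. Between homozygotes and wild type that fit called 14 in place of 26 in injured and 24 in place of 19 in uninjured flies. Over all genes its counts after injury were 353 in place of 813 in homozygotes, 278 in place of 658 in heterozygotes and 647 in place of 525 in wild type. Between homozygotes and wild type they were 284 in place of 594 (injured) and 663 in place of 549 (uninjured), and between heterozygotes and wild type 21 in place of 41 and 33 in place of 69. The cause was not tested. Between heterozygotes and wild type, RLE size factors called 2 lncRNAs in injured flies in place of 1, and DESeq2 called 3 in injured and 3 in uninjured flies (72 and 141 genes); the cause was not tested. With 1 library left out the counts ran over 5 to 21 for injury in homozygotes, 3 to 5 in heterozygotes and 2 to 5 in wild type, over 16 to 26 between injured homozygotes and wild type, and over 1 to 3 (injured) and 1 to 2 (uninjured) between heterozygotes and wild type. Over all genes the ranges were 484 to 1582, 380 to 1495 and 302 to 450 for injury in homozygotes, heterozygotes and wild type, and 24 to 39 (injured) and 33 to 150 (uninjured) between heterozygotes and wild type.

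The labels do not say whether library numbers pair the samples, so the main fit has no pairing. Deviations of same-numbered libraries correlated at -0.435 to 0.291, over 0.1 in 7 of 28 pairs. In 5 of the 28 the best match had the same number. Whether same-numbered libraries share a culture or batch cannot be told from these values. With a replicate block the counts were 12, 3 and 3 for injury in homozygotes, heterozygotes and wild type, 24 and 18 between homozygotes and wild type in injured and uninjured flies, and 1 and 1 between heterozygotes and wild type. A count of 3 equals 0.205 to 0.458 CPM, so the wild-type level of CR43306 is close to what this depth can resolve.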
